A study of Homo sapiens with 18 samples.

Results

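The immunoglobulin genes of MM1S, an established human multiple myeloma cell line, were read from 2 RNA sequencing tables. Members were all gene symbols of the heavy chain (IGH), kappa light chain (IGK) and lambda light chain (IGL) loci that name a variable (V), diversity (D), joining (J) or constant (C) segment. This gave 410 genes among 58884 named rows in each table: 208 of the heavy chain, 109 of kappa and 93 of lambda. IGHMBP2 encodes a helicase, although its symbol has the same start, and it was counted apart. The RIP and H929 tables of the study list 0 members. One table compares 2 MM1S libraries with a scramble control (SCR) with 2 with a short hairpin RNA against RBM39 (shRBM39). The other compares 3 libraries treated with DMSO, the solvent, with 3 treated with indisulam. The labels give neither dose nor duration of treatment. They also do not say whether the numbers 1 and 2 of the knockdown libraries mark hairpins or cultures. A p-value here therefore reflects the scatter of these samples alone, and part of that scatter may be technical. Values are TPM, a share of all transcripts set per transcript length, and the depth behind them is unknown.

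An antibody is built of heavy chains and light chains. Each B cell joins V, D and J segments of the heavy chain and V and J segments of a kappa or lambda light chain, and as a rule it keeps a single productive heavy chain and a single productive light chain. The joined V region is spliced to a constant region. The constant region of the heavy chain sets the class, mu and delta at first and gamma, alpha or epsilon after class switching. Plasma cells transcribe these joined genes at very high rates, and in myeloma, a cancer of plasma cells, all cells descend from a clone and share the same joined segments. MM1S is known as a producer of lambda light chain. RBM39 is an RNA-binding protein of pre-mRNA splicing, and indisulam acts as a molecular glue that links RBM39 to the ligase receptor DCAF15 and so leads to breakdown of the protein.

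RBM39 transcript stood at 176.3 and 204.6 TPM in the scramble libraries and at 64.8 and 52.2 TPM in the shRBM39 libraries, so the groups did not overlap. The log2 difference was -1.69 (SE 0.161, limma adjusted p = 0.0121). That call was lost without either scramble library or without shRBM39 replicate 2 (-1.8, -1.58 and -1.54). In the other table RBM39 was 188.6, 178.3 and 196.0 TPM in DMSO and 226.5, 217.4 and 149.4 TPM with indisulam (log2 difference 0.05, SE 0.16, limma adjusted p = 0.828). The groups overlapped through indisulam replicate 3, without which the difference was 0.24 (limma adjusted p = 0.00899). Without that library 9350 of 14238 genes were called, and the median log2 difference over all genes was 0.104. By exact permutation (two-sided), p was 0.333 for the knockdown and 0.9 for indisulam, and the smallest p that these designs can reach is 0.333 and 0.1.

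The line was checked against markers. MAF, the transcription factor that MM1S is known to overexpress, was at a mean of 247.5 TPM in scramble and 101.5 TPM in DMSO libraries, the plasma cell surface protein SDC1 was at 113.7 and 204.2 TPM, and the kinase FGFR3 stayed at or below 0.4 TPM in every library. None of the 4 line markers tested was called by limma in the knockdown, where 1 had an unadjusted p under 0.05. With indisulam 3 of 4 were called: MAF rose to 242.7 TPM (limma adjusted p = 0.0223), the plasma cell receptor TNFRSF17 fell from 563.7 to 427.5 TPM (limma adjusted p = 0.0109) and the surface enzyme CD38 fell from 4.3 to 1.49 TPM (limma adjusted p = 0.00752). Of the T cell list CD3D and CD3G were listed at 0, as were the macrophage marker FCGR3A and the stromal marker DCN. CD3E was the T cell marker called lower in both comparisons, 1 of 3 tested in the knockdown and 1 of 1 with indisulam. The others tested in the knockdown were not called. TRBC2 went from a mean of 1.14 to 0.79 TPM, and TRAC went the other way, from 0.22 to 1.47 TPM (limma adjusted p = 0.106). Summed T cell markers went from 5.9 to 7.01 TPM in scramble to 3.02 to 3.56 TPM in shRBM39, and from 4.16 to 5.23 TPM in DMSO to 1.29 to 1.76 TPM with indisulam. CD3E made up most of the control sums, at a mean of 5.0 TPM in scramble and 3.35 TPM in DMSO. Summed stromal markers went from 324.4 to 398 TPM to 79.3 to 100.5 TPM and from 522.1 to 561.7 TPM to 255.8 to 309.9 TPM, nearly all of it VIM, a filament gene that many cell lines express. Summed macrophage markers went from 17.1 to 22.2 TPM to 7.58 to 11.8 TPM and from 9.51 to 10.6 TPM to 7.22 to 8.31 TPM. Most of these sums was CD68, at means of 18.0 and 7.49 TPM in the knockdown and 9.91 and 7.44 TPM with indisulam, and it was not called. ITGAM went the other way in the knockdown, from 1.16 to 1.94 TPM, and was not called. Erythroid markers, mostly HBB, went from 11.8 to 13.2 TPM to 6.24 to 15.4 TPM and from 26.3 to 29.6 TPM to 28.2 to 41.2 TPM. The part of these genes in the results below was not tested.

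Immunoglobulin transcripts made up 4.74% and 5.56% of all TPM in the scramble libraries and 7.99% and 7.9% in the shRBM39 libraries. The means were 5.15% ± 0.582 (SD, n = 2) and 7.94% ± 0.0645 (SD, n = 2), and the groups did not overlap. In the indisulam table the share was 11.8%, 11.8% and 11.9% in DMSO and 14.9%, 16.6% and 16.2% with indisulam. Here too all treated libraries lay above all controls, at 15.9% ± 0.921 against 11.8% ± 0.0505 (SD, n = 3 each). No p is given for such sums over members. Mitochondrial genes held 16.9% and 17.1% of TPM in scramble and 17.4% and 21.0% in shRBM39, higher in both knockdown libraries and most in replicate 2. They held 10.2% to 13.0% in DMSO and 10.9% to 12.4% with indisulam, and their part in the result was not tested. The tables were normalized separately, so the lower share in the knockdown table was not compared with the other. In bulk samples such as these, fewer cells of a kind and less RNA per cell cannot be told apart.

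**Figure D1:**
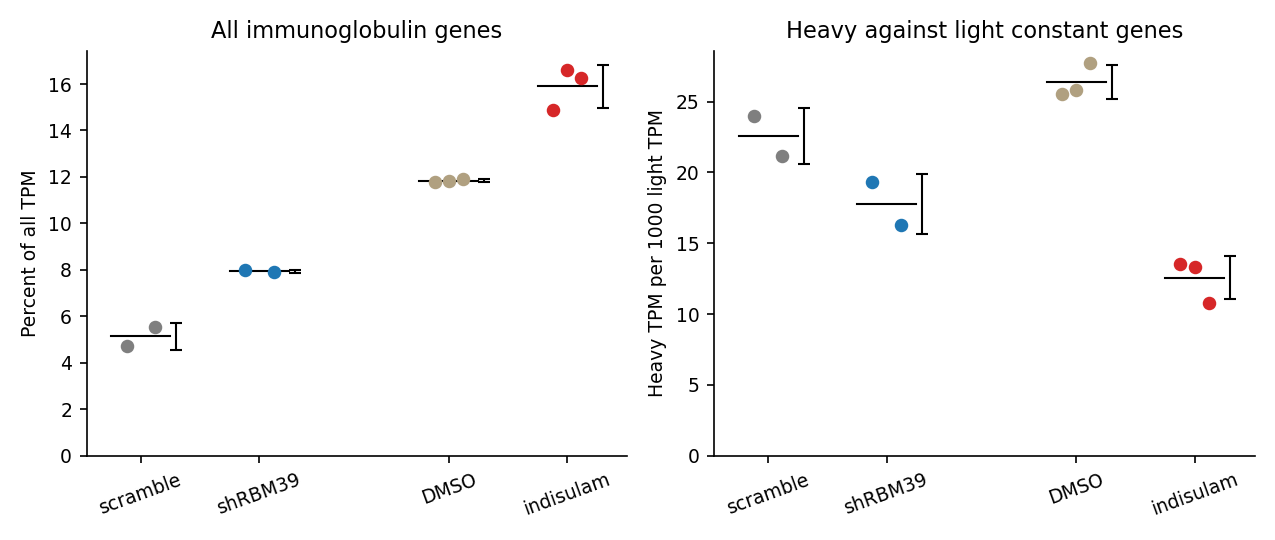
Immunoglobulin transcripts as a percentage of all TPM in each library, and heavy chain constant TPM per 1000 light chain constant TPM. Points are libraries, horizontal bars are group means and error bars are SD; indisulam libraries lie at 14.9% to 16.6% of TPM, above DMSO at 11.8% to 11.9%, while their heavy to light ratio is lower.

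Nearly all of this signal came from a few lambda genes. Lambda genes held between 98.9% and 99.5% of immunoglobulin TPM in the 10 libraries, heavy chain genes between 0.465% and 1.09%, and kappa genes together 0.48 to 2.54 TPM. IGKC, the only kappa constant gene, was listed at 0 in all 10 libraries. Of the 410 members, 360 were listed at 0 in every library of the knockdown table and 339 in every library of the indisulam table. A level of 1 TPM or more in at least 1 library was reached by 25 and 34 members, and a mean of 1000 TPM or more by 3 and 4.

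**Figure D2:**
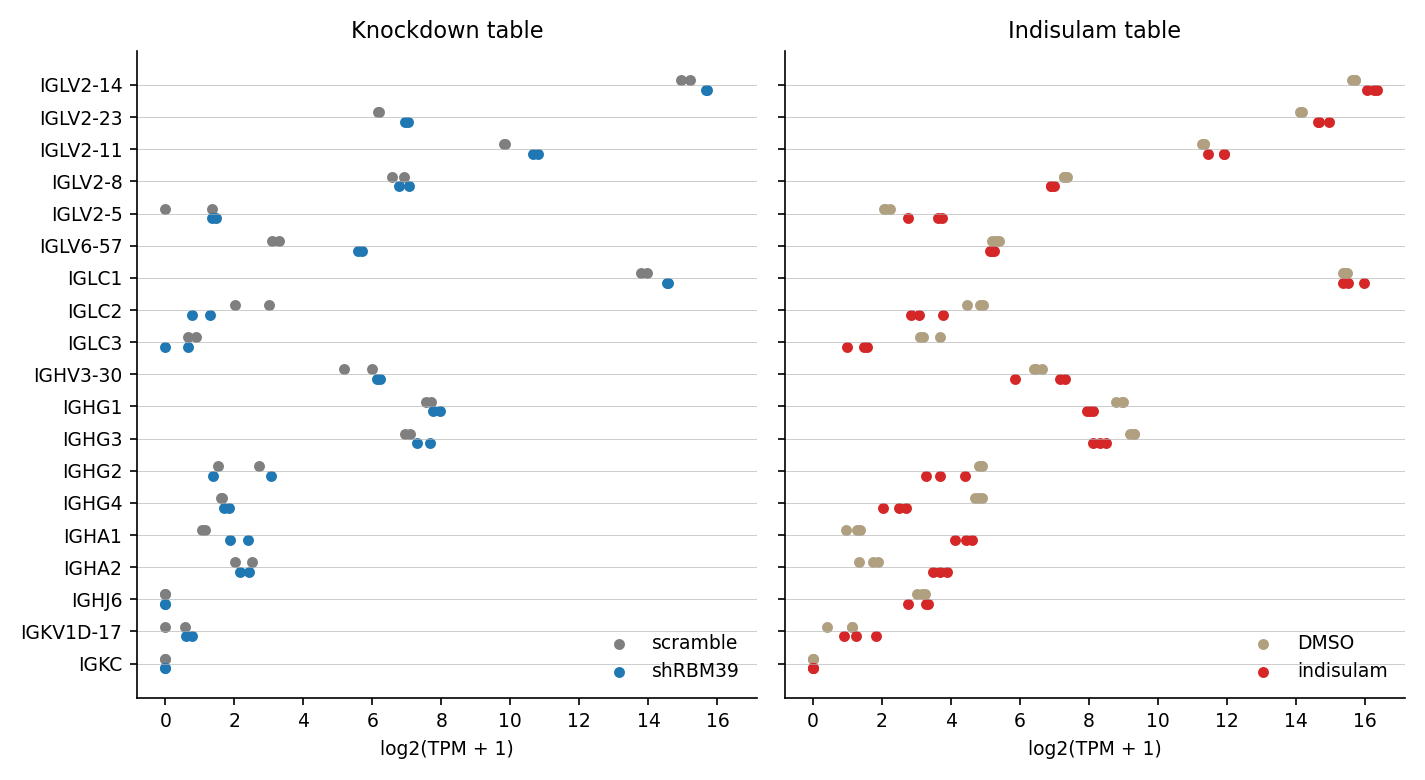
Levels of 19 immunoglobulin genes in every library as log2(TPM + 1), knockdown table and indisulam table in separate panels. Each point is a library; IGLV2-14 and IGLC1 stand highest in both panels, the gamma constant genes IGHG1 and IGHG3 lie far below them, and IGHA1 and IGHA2 separate by treatment in the indisulam panel.

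IGLV2-14, a lambda V segment, was the most abundant member in every library. It stood at 31795 and 38127 TPM in scramble, 53307 and 52610 TPM in shRBM39, 53291, 50424 and 53944 TPM in DMSO and 77671, 82594 and 67613 TPM with indisulam. Among all genes it ranked 1 in all 6 libraries of the indisulam table and 1 or 2 in the knockdown table, where the mitochondrial gene MT-ATP8 ranked above it in 3 of 4 libraries. IGLC1, the leading lambda constant gene, followed among the members. It was at 14079 and 15926 TPM in scramble and 24107 and 23769 TPM in shRBM39. In the indisulam table it was at 42491, 45884 and 42863 TPM in DMSO and 41855, 46749 and 64008 TPM with indisulam. Within each of the 4 groups all IGLV2-14 values lay above all IGLC1 values. IGLC1 held 99.9% or more of the TPM of the lambda constant genes. The V subgroup of IGLV2-14 (IGLV2) held between 99.85% and 99.97% of lambda V TPM.

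The other IGLV2 segments differed between the tables. IGLV2-23 was the next V segment in the indisulam table, with 32.7 to 38.6 TPM for each 100 TPM of IGLV2-14, whereas in the knockdown table it had 0.187 to 0.246 TPM for each 100. IGLV2-14 accordingly held 96.1% to 97.1% of lambda V TPM in the knockdown table and 69.2% to 73.3% in the indisulam table. The ranges do not overlap, but the tables were made separately and the difference was not tested. IGLV2 segments are closely alike in sequence, so reads may be split between IGLV2-14, IGLV2-23, IGLV2-11, IGLV2-8 and the RefSeq pseudogene IGLV2-5, and their separate values are uncertain. The same holds for IGLC1, IGLC2 and IGLC3, for IGHG1 to IGHG4, for IGHA1 and IGHA2, and for IGHV3-30 and IGHV3-33. The assignment of reads by the authors' counting is not given in the sources used here.

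Heavy chain transcripts were much lower and mostly of the gamma class. IGHG1 stood at 188.9 and 205.9 TPM in scramble and at 249.9 and 214.5 TPM in shRBM39. IGHG3 stood at 134.8 and 123.4 TPM in scramble and at 203.0 and 155.6 TPM in shRBM39. In the indisulam table the order of these genes was the other way round in DMSO, with IGHG3 at 588.4, 626.0 and 625.5 TPM and IGHG1 at 441.2, 499.3 and 504.1 TPM. Within each indisulam library IGHG3 was also above IGHG1, although their ranges over that group overlapped. IGHV3-30 was the leading heavy V segment in both tables and held 87.7% to 99.4% of heavy V TPM. The mu, delta and epsilon constant genes together stayed at or below 0.18 TPM in every library.

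Kappa V, D and J segments were low throughout. IGKV1D-17 reached at most 0.72 TPM in the knockdown table and 2.54 TPM in the indisulam table, IGKV1OR2-108 at most 1.26 TPM and IGKV1D-43 at most 0.27 TPM in the knockdown table. D and J segments summed to 0 TPM in the knockdown table and to 9.29 to 57.7 TPM in the indisulam table. IGLJ1 was at 46.1 TPM in DMSO replicate 3 and listed at 0 in the other 5 libraries of that table, and IGHJ6 was at 7.92, 8.58 and 7.08 TPM in DMSO and 8.71, 9.1 and 5.72 TPM with indisulam.

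The knockdown comparison asks what the hairpin against RBM39 does to these transcripts. IGLV2-14, IGLC1 and 3 other lambda genes rose, while the heavy chain genes did not pass the test. A gene was tested when it reached 1 TPM in at least 2 of the 4 libraries, and called at an adjusted p below 0.05. Of 18 members tested, 5 were called, all higher and all lambda. Over all genes tested 10.3% were called, 3.97% higher and 6.35% lower. The median log2 difference of the 18 members was 0.53, beside 0 over all genes tested. The other 392 members, of which IGLV10-54 reached the highest level at 15.4 TPM, were below the filter.

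Among the lambda genes IGLV2-14 rose from 34961 ± 4477 TPM to 52959 ± 493 TPM (mean ± SD, n = 2 each), 1.51-fold on means (log2 difference 0.60, SE 0.105, limma adjusted p = 0.0319). IGLC1 rose from 15002 ± 1306 TPM to 23938 ± 239 TPM, 1.6-fold (log2 difference 0.68, SE 0.09, limma adjusted p = 0.0205). In both genes the 2 shRBM39 libraries lay close together and above both scramble libraries. IGLV2-11, at 915.0 and 909.0 TPM in scramble and 1615 and 1782 TPM in shRBM39, differed by 0.89 on the log2 scale (limma adjusted p = 0.0156). IGLV2-23, at 71.7 and 71.1 TPM against 131.0 and 122.4 TPM, had 0.82 (limma adjusted p = 0.0226). IGLV6-57, a lambda V segment of another subgroup, showed the largest ratio of the 5, with 7.48 and 8.84 TPM in scramble and 46.9 and 51.4 TPM in shRBM39 (6.02-fold, limma adjusted p = 0.0116). Not every IGLV2 segment moved: IGLV2-8 was at 94.4 and 119.7 TPM against 108.9 and 132.3 TPM, which overlap (limma adjusted p = 0.542). After quantile normalization the differences of IGLV2-14 and IGLC1 were 0.14 and 0.16, and neither was called; that method sets values by rank, and these genes ranked 1 or 2 and 4 or 5 in every library. These calls rest on few libraries. All 5 were lost without either scramble library or without shRBM39 replicate 2. Those fits leave 1 library in a group and lost the calls of all other genes too, so the loss is not particular to the members. Without shRBM39 replicate 1, IGLV2-11 and IGLV6-57 kept their calls. Over these 4 omissions the log2 difference lay between 0.47 and 0.74 for IGLV2-14, 0.59 and 0.77 for IGLC1, 0.82 and 0.9 for IGLV2-11, 0.77 and 0.87 for IGLV2-23, and 2.35 and 2.56 for IGLV6-57.

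In the heavy chain 0 of 7 genes tested were called by limma, with 2 at an unadjusted p under 0.05, and the median log2 difference was 0.23. The difference on the log2 scale was 0.23 for IGHG1 (SE 0.134, limma adjusted p = 0.293) and 0.46 for IGHG3 (SE 0.166, limma adjusted p = 0.13). For both, all shRBM39 libraries lay above the scramble libraries. IGHA1, an alpha class gene, was at 1.24 and 1.08 TPM against 4.27 and 2.68 TPM (limma adjusted p = 0.0688). IGHA2 was at 4.73 and 3.05 TPM against 3.49 and 4.33 TPM, and the gamma genes IGHG2 and IGHG4 stayed at or below 7.29 TPM. IGHV3-30 was at 35.0 and 62.3 TPM in scramble and 73.2 and 69.3 TPM in shRBM39 (limma adjusted p = 0.207), above both controls but with a wide gap between those. IGHV2-26 and IGHV5-51, the next heavy V segments, reached at most 0.99 and 0.88 TPM. Of the minor lambda constant genes IGLC2 was at 3.03 and 7.02 TPM against 1.46 and 0.71 TPM (limma adjusted p = 0.0757), and IGLC3 stayed at or below 0.86 TPM and was not tested.

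Heavy chain constant transcripts numbered 24.0 and 21.2 per 1000 light chain constant transcripts in scramble and 19.3 and 16.3 in shRBM39. The means were 22.6 ± 1.96 and 17.8 ± 2.12 (SD, n = 2 each). The groups did not overlap, but the gap between their nearest libraries was smaller than the SD of either group.

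The indisulam comparison asks the same of the drug. IGLV2-14 and IGLV2-23, the lambda V segments with the highest values in these libraries, and the alpha constant genes rose. The gamma constant genes and the minor lambda constant genes IGLC2 and IGLC3 fell. Reads may be split between IGLV2-14 and IGLV2-23, so their rises cannot be taken as separate results. Of 22 members tested, at 1 TPM or more in at least 3 of 6 libraries, 14 were called, 6 higher and 8 lower. Over all genes tested 29.9% were called, 8.47% higher and 21.5% lower. The heavy chain had 2 higher and 4 lower of 9, and lambda 4 higher and 4 lower of 12. The single kappa gene tested, IGKV1D-17, had a limma adjusted p of 0.313. The median log2 difference was -0.81 for the heavy chain genes and -0.23 for lambda, beside -0.05 over all genes tested. The balance of all calls moved with the scaling: 28.3% of called genes were higher as deposited, 45.6% after median scaling, 52.1% after quantile normalization and 35.4% after rescaling without immunoglobulin genes. Median scaling left 9 of the 22 members called, 3 higher and 6 lower, where 5450 of 13445 genes were called. After quantile normalization 10 of 22 were called, where 5806 of 13445 genes were. The member calls in these settings stood near the share over all genes.

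**Figure D3:**
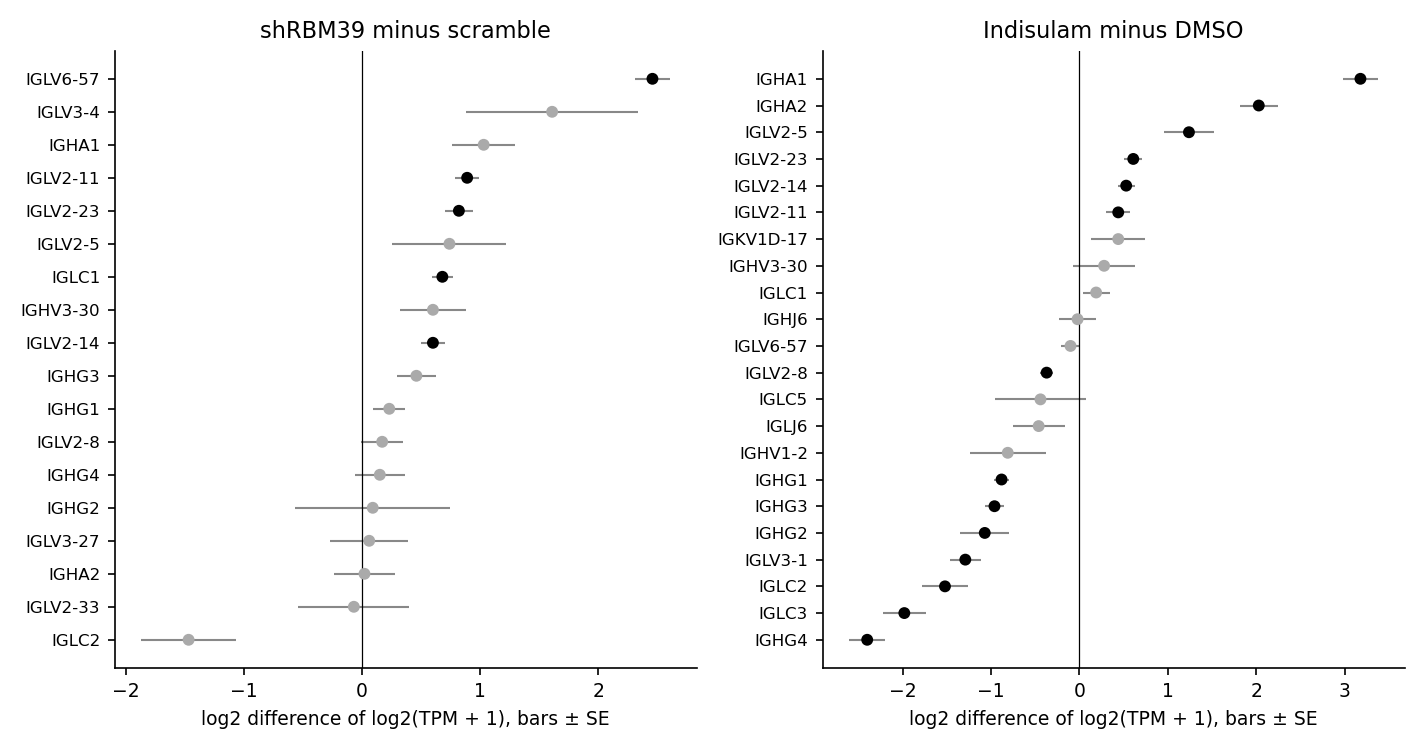
Log2 differences of the tested immunoglobulin genes on the log2(TPM + 1) scale, shRBM39 minus scramble and indisulam minus DMSO. Points are limma estimates, error bars are SE, and black points have an adjusted p below 0.05; lambda genes make up the 5 called points of the knockdown, and with indisulam IGHA1 (3.18) and IGHG4 (-2.4) mark the ends.

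Of the V segments, IGLV2-14 rose from 52553 ± 1872 TPM to 75959 ± 7636 TPM with indisulam (mean ± SD, n = 3 each), 1.45-fold (log2 difference 0.53, SE 0.0944, limma adjusted p = 0.00644). IGLV2-23 went from 18351, 17814 and 18036 TPM to 25363, 31877 and 26018 TPM, 1.54-fold (log2 difference 0.61, SE 0.102, limma adjusted p = 0.00482). For both, all 3 treated libraries were above all 3 DMSO libraries. Median scaling ended both calls with little change in size, at 0.54 and 0.62 (limma adjusted p = 0.206 and 0.13). After quantile normalization IGLV2-14, as the highest value of every library, had a difference of 0, and IGLV2-23 one of 0.34. IGLV2-11 was at 2474, 2587 and 2578 TPM against 2778, 3820 and 3861 TPM (0.44, limma adjusted p = 0.0461), and IGLV2-5 at 3.21, 3.68 and 3.24 TPM against 11.3, 12.5 and 5.72 TPM (1.24, limma adjusted p = 0.0157). IGLV2-8 went the other way within the same subgroup, from 154.4, 162.9 and 154.0 TPM to 118.6, 118.8 and 125.7 TPM (-0.37, limma adjusted p = 0.0108), with no overlap between the groups. IGLV6-57, which rose in the knockdown, was at 35.6, 41.1 and 38.4 TPM in DMSO and 34.4, 37.0 and 35.9 TPM with indisulam (-0.1, limma adjusted p = 0.525). The IGLV2-11 call was lost without any 1 DMSO library or without indisulam replicate 2 (0.36 to 0.45). The IGLV2-5 call was lost without any 1 DMSO library or without indisulam replicate 1 or 2 (1.06 to 1.29), and the IGLV2-8 call without any 1 DMSO library (-0.39 to -0.35). Median scaling and quantile normalization also ended the calls of IGLV2-11 (0.45 and 0.34) and IGLV2-8 (-0.36 and -0.08). So did no filter and limma without its trend and robust options for IGLV2-11, and a replicate block for IGLV2-8.

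The constant gene IGLC1 was not called. Its values overlapped between groups, and the log2 difference was 0.19 (SE 0.154, limma adjusted p = 0.372). Indisulam replicate 3, at 64008 TPM, stood apart from the other 2 treated libraries, and without it the difference was 0.02 (limma adjusted p = 0.839). For each 100 TPM of IGLV2-14 there were 79.7, 91.0 and 79.5 TPM of IGLC1 in DMSO and 53.9, 56.6 and 94.7 TPM with indisulam, so indisulam replicate 3 lay above all DMSO libraries and the other 2 below them. In the knockdown table this ratio was 44.3, 41.8, 45.2 and 45.2 over its 4 libraries. The minor constant genes fell. IGLC2 went from 29.4, 27.5 and 21.2 TPM to 7.43, 6.13 and 12.6 TPM (-1.52, SE 0.264, limma adjusted p = 0.00576). IGLC3 went from 7.54, 8.13 and 11.8 TPM to 1.95, 0.98 and 1.79 TPM (-1.98, SE 0.241, limma adjusted p = 0.00141). Neither gene had overlapping groups, and IGLC5 was not called (-0.44, limma adjusted p = 0.552).

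All 4 gamma constant genes fell with indisulam. IGHG1 fell from 481.5 ± 35 TPM to 260.3 ± 16.3 TPM (mean ± SD, n = 3 each), with 243.0, 262.5 and 275.4 TPM in the treated libraries (log2 difference -0.88, SE 0.089, limma adjusted p = 6.64e-04). IGHG3 fell from 613.3 ± 21.6 TPM to 316.7 ± 41.5 TPM, with 274.8, 317.4 and 357.9 TPM in the treated libraries (-0.96, SE 0.107, limma adjusted p = 0.00102). These are the gamma genes with the highest levels, and their means went to 0.541 and 0.516 of those in DMSO. IGHG4 went from 25.1, 27.4 and 28.8 TPM to 3.08, 4.67 and 5.54 TPM (-2.4, SE 0.205, limma adjusted p = 4.06e-04). IGHG2 went from 28.5, 28.7 and 27.3 TPM to 8.68, 11.9 and 20.4 TPM (-1.07, SE 0.275, limma adjusted p = 0.0252). No treated library reached a DMSO library in any of the 4 genes. The IGHG2 call was lost without any 1 DMSO library or without indisulam replicate 1 or 2 (-1.09 to -0.81). It was also lost after median scaling (-1.05), after quantile normalization (-1.0) and with no filter (-1.07).

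The alpha constant genes rose from low levels. IGHA1 was at 0.96, 1.44 and 1.56 TPM in DMSO and at 23.3, 16.3 and 20.6 TPM with indisulam, a 15.2-fold rise of the means (log2 difference 3.18, SE 0.202, limma adjusted p = 1.4e-04). IGHA2 was at 1.51, 2.36 and 2.71 TPM in DMSO and at 13.8, 10.2 and 11.8 TPM with indisulam, a 5.43-fold rise (2.03, SE 0.212, limma adjusted p = 7.91e-04). Both kept a wide gap between the groups, and on the log2(TPM + 1) scale the differences understate the change of such low genes. The sum of both alpha genes was 0.228 to 0.36 TPM for each 100 TPM of the gamma genes in DMSO and 4.44 to 7.00 TPM with indisulam. In the knockdown table it was 1.8 and 1.24 in scramble and 1.7 and 1.84 in shRBM39, with no separation of the groups.

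**Figure D4:**
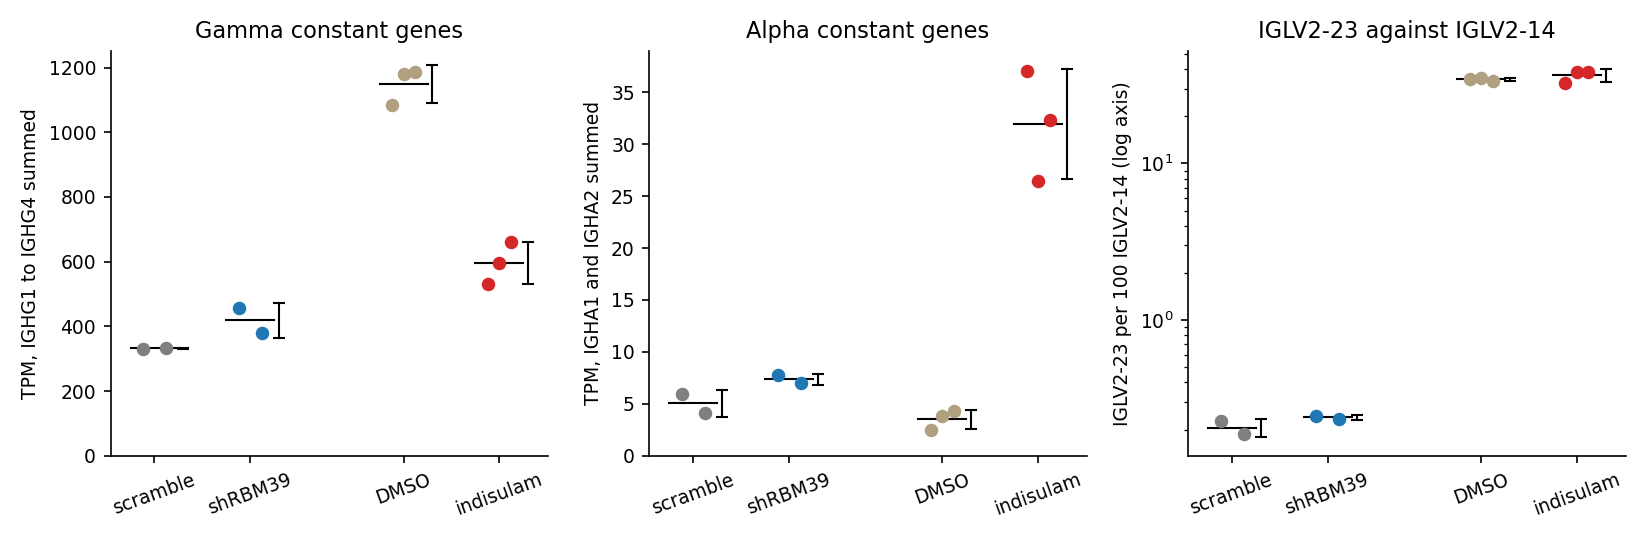
Summed gamma constant genes (IGHG) and summed alpha constant genes (IGHA) in TPM, and IGLV2-23 per 100 TPM of IGLV2-14 on a log axis, in each library. Points are libraries, bars are means and error bars are SD; with indisulam IGHG lies at 529.5 to 659.2 TPM against 1083 to 1186 TPM in DMSO, IGHA at 26.5 to 37.1 TPM against 2.47 to 4.27 TPM, and IGLV2-23 per IGLV2-14 sets the 2 tables apart.

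The leading heavy V segment was not called. IGHV3-30 was at 83.1, 87.0 and 98.3 TPM in DMSO and 157.1, 141.6 and 57.4 TPM with indisulam (0.28, SE 0.353, limma adjusted p = 0.579). Indisulam replicate 3 was below all DMSO libraries and the other 2 above them, and without it the difference was 0.73 (limma adjusted p = 3.41e-04). In that fit 9350 of 14238 genes were called, and the median log2 difference over all genes was 0.104. IGHV3-33 was at 5.48 and 7.96 TPM in DMSO replicates 1 and 2 and at or below 0.43 TPM in the other libraries, too low to be tested, and IGHV1-2 was not called (-0.81, limma adjusted p = 0.197).

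Heavy chain constant TPM went from 1154 ± 58.9 in DMSO to 627.2 ± 62.4 with indisulam (SD, n = 3 each), and light chain constant TPM from 43785 ± 1859 to 50883 ± 11639. Per 1000 light chain constant transcripts, there were 25.5, 25.8 and 27.7 heavy chain constant transcripts in DMSO and 13.5, 13.3 and 10.8 with indisulam, as ratios of TPM. The groups did not overlap, at means of 26.4 ± 1.21 and 12.6 ± 1.52. The same ratio taken on V segments was 1.25, 1.4 and 1.35 in DMSO and 1.52, 1.24 and 0.594 with indisulam, with means of 1.33 ± 0.0778 and 1.12 ± 0.474 (SD, n = 3 each). Here the groups overlapped and the lower treated mean came from indisulam replicate 3, without which it was 1.38. Whether the effect of indisulam on any immunoglobulin gene differs from that of the hairpin was not tested, since the 2 tables were normalized separately.

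Genes that act with the chains are given for context. JCHAIN, which links antibody units into polymers, was at 2884 and 4940 TPM in scramble and 5612 and 5417 TPM in shRBM39 (limma adjusted p = 0.206), and at 4300, 3773 and 3976 TPM in DMSO and 3423, 3885 and 2925 TPM with indisulam (limma adjusted p = 0.158). IGLL5 spans IGLC1 and IGLJ1 in RefSeq, so reads of these genes cannot be told apart from its own. It had 14.0 to 17.8 TPM for each 100 TPM of IGLC1, was at 2391 and 2829 TPM in scramble and 3759 and 3857 TPM in shRBM39 (log2 difference 0.55, limma adjusted p = 0.0444), and was not called with indisulam (0.11, limma adjusted p = 0.59). The IGLL5 call was lost without any 1 of the 4 knockdown libraries (0.43 to 0.67). MZB1, a chaperone of antibody assembly in the endoplasmic reticulum, fell with indisulam from 1866 ± 63.9 TPM to 1321 ± 16.9 TPM (-0.5, limma adjusted p = 0.00225) and was 719.8 ± 120.2 TPM against 1374 ± 417.6 TPM in the knockdown (0.91, limma adjusted p = 0.0701).

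Of 45 folding and secretion genes tested, 2 were higher and 2 lower in the knockdown, where 10.3% of all genes were called. With indisulam 7 were higher and 16 lower, where 29.9% of all genes were called. In both comparisons HERPUD1, a gene of the degradation machinery of the endoplasmic reticulum, rose, from 301.7 to 519.5 TPM (limma adjusted p = 0.0374) and from 493.9 to 998.7 TPM (limma adjusted p = 0.00155). The chaperone gene HSP90B1 rose in the knockdown from 987.6 to 1429 TPM, while the translocon gene SEC61B fell from 564.7 to 326.9 TPM and SSR1 from 121.9 to 66.2 TPM. With indisulam the cochaperone DNAJB9 rose from 42.1 to 79.8 TPM and the disulfide isomerase TXNDC5 from 2453 to 4354 TPM. The translocon gene SEC61G fell from 834.7 to 434.9 TPM, FKBP11 from 252.7 to 131.9 TPM and ERP29 from 157.5 to 91.9 TPM. The list medians were -0.19 and -0.15, beside 0 and -0.05 over all genes tested.

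The counts in the lists that follow stand beside the same shares over all genes, 10.3% in the knockdown and 29.9% with indisulam, and nothing particular to a list is read from them. Of 17 transcription regulators of immunoglobulin genes tested in the knockdown, 1 was lower, SPI1 from 16.5 to 8.64 TPM (limma adjusted p = 0.0309). Of 16 tested with indisulam, 1 was higher and 2 were lower. XBP1, a regulator of the secretory program of plasma cells, rose from 534.1 to 649.4 TPM (limma adjusted p = 0.0252), and the inhibitors ID3 and ID2 fell from 23.5 to 4.08 TPM (limma adjusted p = 4.83e-04) and from 42.9 to 17.1 TPM (limma adjusted p = 0.00272). Of 15 genes for the choice of the heavy chain 3′ end, 2 were lower in the knockdown. ELL2, an elongation factor that favours the secreted form, fell from 75.8 ± 28.3 TPM to 24.0 ± 3.18 TPM (limma adjusted p = 0.033), and NUDT21 was the other. With indisulam 1 was higher, the termination factor PCF11 from 31.4 to 87.7 TPM (limma adjusted p = 0.0149), and HNRNPF, CPSF1 and CPSF3 were lower, while ELL2 was at 9.36 against 13.0 TPM (limma adjusted p = 0.183).

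Of 15 nonsense-mediated decay genes, a pathway that clears transcripts of failed joins, 0 were called by limma in the knockdown, with 2 at an unadjusted p under 0.05. With indisulam, where 29.9% of all genes were called, 1 was higher, CASC3, and 4 were lower, EIF4A3, MAGOH, RBM8A and RNPS1, with EIF4A3 falling from 63.9 to 27.0 TPM (limma adjusted p = 3.98e-04). Of 6 genes of segment joining and class switch, 2 were lower in the knockdown, POLH and PRKDC, and 3 with indisulam, among them the uracil repair gene UNG and the mismatch repair gene MSH6. The B cell surface list had 1 lower of 8 in the knockdown, FCRL5, and with indisulam 1 higher, CD79A, and 1 lower, SYK, of 7, shares near those of all genes (10.3% and 29.9%).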

How the data were processed

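Per the labels' protocols, RNA was taken up in TRIzol and sequencing libraries came from a SMARTER mRNA kit. Aligner, counting tool and gene annotation: not given in the sources used here. GRCm38 and mm10, both mouse, are the builds in the submitters' processing notes, so no coordinates are printed. Both MM1S tables, though named FPKM, hold TPM as deposited by the authors, since all columns have the same total within rounding; the RIP and H929 tables hold FPKM as deposited by the authors. The RefSeq table (GRCh38.p14), in which 382 of the 410 members matched, was used for names, gene type and neighbours.

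Rows without a gene name (834 and 473, holding 0.436% to 0.459% and 0.174% to 0.237% of TPM) were left out of the tests. 0 columns were left unmatched. Under R 4.3.3, limma 3.58.1 with its trend and robust options was run on log2(TPM + 1) of each table, two-sided, for genes at 1 TPM or more in at least 2 (knockdown) or 3 (indisulam) libraries, with Benjamini-Hochberg adjustment over all genes tested, at 0.05. Summed shares and ratios have no test. Tested on simulated data with 200 changed genes, the fit called 12% of genes changed by 1 and 44% of those changed by 2 on the log2 scale in the knockdown, and 40% and 84% with indisulam. The changed genes were drawn from all levels, and in the real data more genes were called (1461 and 4024). These shares therefore need not hold for the members. Python 3.11.15, NumPy 2.4.6, pandas 2.3.3, SciPy 1.17.1 and Matplotlib 3.10.9 were used.

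The members and lists were chosen with earlier results of these data known. Named are constant genes at a group mean of 1 TPM or more, the 3 leading V segments of each locus and table, called members at a group mean of 5 TPM or more, D and J segments at a group mean of 5 TPM or more, and up to 3 called genes a direction of each list. The alternatives were another pseudocount, filter, scaling or fit, a replicate block and leaving out each library in turn. The label "In" was taken to mean indisulam. Some genes of the lists are not reported here.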

Additional observations from a re-analysis of the deposited data

How the results depend on the processing

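In the knockdown the 5 members called were also 5 with a pseudocount of 0.1, a filter at 5 TPM, median scaling and rescaling without immunoglobulin genes. They were 3 after quantile normalization, 3 by limma without trend and robust, 1 (IGLV6-57) with the replicate block and 0 by limma with no filter, where 9 of 50 members had an unadjusted p under 0.05. Over all genes the calls were 1615, 1065 and 255 in the first 3 of these settings, against 1461. With no filter limma called 0 of 27260 genes, so the 0 members are not particular to the immunoglobulin genes. Leaving out 1 library, which leaves 1 in a group, lost calls among the members and among all genes alike. The replicate numbers were not taken as pairs: deviations of same-numbered libraries correlated at -0.142 in the knockdown and at 0.137, -0.148 and -0.0255 with indisulam. The replicate block left 255 genes called in the knockdown against 1461, and a crossed pairing, added after the data were seen, gave 772 genes and 5 members. With indisulam the 14 members called became 9 after median scaling, 13 with the replicate block and 10 to 17 with 1 library left out. Over all genes the 4024 calls became 5450, 3176 and 1849 to 9350 in these settings. The 17 of 24 members were called without indisulam replicate 3, where 9350 of 14238 genes were called. RBM39 in the knockdown lost its call with no filter (-1.69, limma adjusted p = 0.0723), and leaving out 1 library gave -1.84 to -1.54. With indisulam RBM39 was called after quantile normalization (0.4), and leaving out 1 library gave -0.06 to 0.24. With JCHAIN, IGLL5 and IGLL1 the shares were 5.8%, 8.87%, 12.9% and 17.0% in scramble, shRBM39, DMSO and indisulam libraries. By V segments the heavy to light ratios per 1000 were not on the same scale as by constant genes, at 1.36, 1.31, 1.33 and 1.12, and the last was 1.38 without indisulam replicate 3, an omission chosen after the data were seen. IGHA1, IGHA2, IGHG1, IGHG3, IGHG4, IGLC2 and IGLC3 kept their indisulam calls in all 14 alternatives, with IGHA1 between 3.06 and 3.84 and IGHG1 between -0.95 and -0.56. IGLV2-14 had a difference of 0 after quantile normalization, as the highest value in all 6 libraries. The RIP alternatives were not run, since that table lists 0 members. The causes were not tested, and depth is unknown for TPM.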

Other observations

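The table of RNA immunoprecipitation (RIP) from MM1S, with 1 library for RBM39 and 1 for IgG, lists IGLL5, which spans IGLC1. It was at 2160 FPKM with the RBM39 antibody and 3103 FPKM with IgG, a log2 ratio of -0.52 on the log2(FPKM + 1) scale used for all these ratios, where the median of 10966 genes was 0.02 and 34.9% of genes had a lower ratio. MZB1 was at 581.6 against 935.2 FPKM (-0.68). IGLL1, a surrogate light chain gene of early B cells, was at 5.13 against 0.234 FPKM (2.31 with the added 1 FPKM, with 96.4% of genes lower). In the MM1S knockdown and indisulam libraries IGLL1 stayed at or below 0.21 TPM, so its ratio is not read as binding. With 1 library each the RIP values have no replicate check.

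IGLV3-1, named after its values were seen, was at 3.27, 3.07 and 3.04 TPM in DMSO and 0.79, 0.9 and 0.41 TPM with indisulam (log2 difference -1.29, limma adjusted p = 0.00192). IGHMBP2, the helicase gene that only shares the start of the symbol, was at 8.29, 7.82 and 9.75 TPM in DMSO and 17.9, 18.1 and 11.7 TPM with indisulam (0.79, limma adjusted p = 0.0271). Its call was lost in 7 of 14 alternatives, with no filter, with the replicate block, and without any 1 DMSO library or indisulam replicate 1 or 2 (0.69 to 0.87).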
